A study of Mus musculus with 17 samples.

Results

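Bap1LysM and Bap1flox preosteoclasts (preOCs) of replicates 4 to 6 were compared by RNA-seq, with 3 libraries of each genotype. These 6 of the 17 libraries of the series were chosen by their labels, which name the cell type, the genotype and the replicate number. Every library was made from bone marrow macrophages (BMMs) of 20-week-old male mice that had been cultured with M-CSF and 100 ng/ml RANKL for 24 h. Bap1LysM mice carry loxP-flanked Bap1 alleles and Cre recombinase inserted into the lysozyme M gene (Lyz2), so Bap1 is deleted in myeloid cells. Bap1flox littermates carry the same floxed alleles without Cre. The study's methods give the Cre of Bap1LysM mice as heterozygous. Because Cre replaces part of a Lyz2 allele, the genotypes differ at Lyz2 as well as at Bap1. The remaining libraries, 5 of preOCs and 6 of BMMs without RANKL (replicates 1 to 3), were kept out of the test and used only for the direction of the differences. The study describes its libraries as independent samples, but the labels name no mouse, so the p-values measure the spread between these libraries.

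BAP1 is a deubiquitinase of the nucleus. With an ASXL protein it forms the Polycomb repressive deubiquitinase complex, which removes mono-ubiquitin from histone H2A, the mark that Polycomb repressive complexes of the PRC1 type write. Osteoclasts arise from macrophage precursors when RANKL, acting through its receptor RANK, switches on NFATc1, and they then fuse and resorb bone with the protease cathepsin K under an acid-filled, actin-ringed seal. At 24 h of RANKL the cells are mononuclear precursors in which these genes are being induced. The comparison asks which transcripts differ between the genotypes before any difference in resorption.

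The libraries held 39760972 to 61369441 counts, so for most genes the precision was limited by how much libraries of a genotype differed. Of the variance between the 6 libraries, 71.5% lay on a leading principal component that separated the genotypes, and 10.2% on the next, on which Bap1flox replicate 6 stood apart from the other Bap1flox libraries. Mitochondrially encoded protein genes took 2.23% to 3.43% of the counts in Bap1flox and 3.14% to 4.90% in Bap1LysM, against 0.450% to 0.989% in the 11 other libraries of the series. Ribosomal RNA took 0.137% to 0.209% in Bap1flox and 0.246% to 0.359% in Bap1LysM, without overlap, and its part in the results was not tested beyond leaving these genes out.

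The targeted gene was reported in every library first. Bap1 (chr14:31251450-31259944, GRCm38) measured 82.4, 85.4 and 70.6 CPM (counts scaled to library size, the unit of every level given here) in Bap1flox replicates 4, 5 and 6. It measured 70.3, 66.4 and 56.9 CPM in Bap1LysM replicates 4, 5 and 6. The genotypes did not overlap, but the log2 fold change of -0.30 (SE 0.11) did not pass the test across all genes (adjusted p = 0.059). Counts over the whole gene take in reads from exons outside the floxed segment, so they check the deletion only in part. Lyz2 (chr10:117277334-117282274), which encodes lysozyme M and holds the Cre insertion, measured 7602, 9491 and 12962 CPM in Bap1flox. In Bap1LysM it measured 38.9, 40.2 and 31.1 CPM. This is a log2 fold change of -8.09 (SE 0.26, adjusted p = 2.7e-06) in all 3 libraries labelled with Cre, and no called gene had a larger one in either direction. A heterozygous insertion would leave an intact Lyz2 allele, and these levels lie far below what such an allele would give if expressed as in Bap1flox. The number of Cre alleles was not tested.

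Across 12728 genes tested, 4304 differed between the genotypes at an adjusted p under 0.05, which is 33.8% of those tested. At a fold change of at least 1.5, 952 genes (7.48%) were higher and 1262 (9.92%) were lower in Bap1LysM. Large changes were more often increases, with 132 genes higher and 58 lower at a log2 fold change of at least 2. In 4255 of the 4304 genes the libraries of the genotypes did not overlap, while 49.2% of all genes tested were without overlap, 23.6% being higher and 25.6% lower. Without a limit on the fold change, 15.8% of all genes tested rose and 18.0% fell, and these are the shares to read each list of genes against. The median log2 fold change of all genes tested was 6.5e-05. Genes that were higher were mostly expressed at a low level, with a median over genes of 4.02 CPM in Bap1flox and 9.06 CPM in Bap1LysM, whereas the median gene tested stood at 25.3 CPM in Bap1flox. Of 4 equal bins of genes by mean level, the lowest had 14.8% higher and 16.3% lower, and the highest 4.31% and 2.23%. Without Bap1flox replicate 5 the number of genes called was 2600, the only library whose removal changed it by more than 1.5 times.

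**Figure D1:**
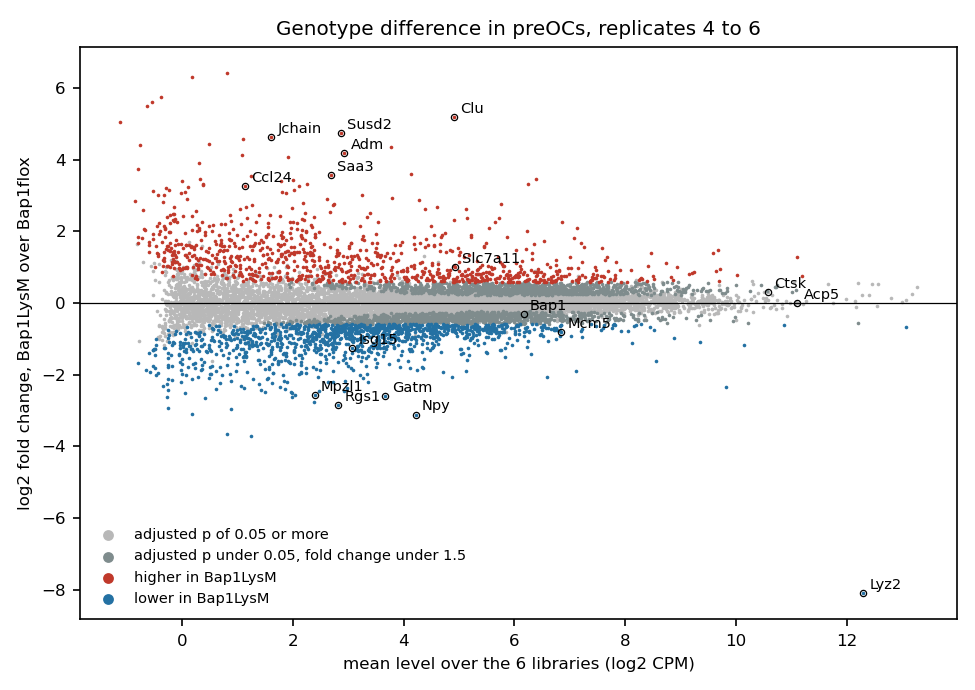
Log2 fold change of Bap1LysM over Bap1flox preOCs (vertical axis) against the mean level of each gene over the 6 libraries (horizontal axis, log2 CPM), with 12728 genes as points coloured by the outcome of the test. The 952 genes that were higher (red) and the 1262 that were lower (blue) lie on either side of 0, and Lyz2 lies alone at the bottom with a log2 fold change of -8.09.

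Among protein-coding genes whose genotypes did not overlap and that reached a mean of at least 5 CPM in the higher genotype, the 10 with the largest increase were Clu, Susd2, Jchain, Adm, Rasd2, Saa3, Fxyd2, Lrrc4, Scube3 and Apol7c, with log2 fold changes of 3.33 to 5.19. Clu (chr14:65968483-65981548), which encodes the secreted chaperone clusterin, measured 1.69, 1.27 and 1.83 CPM in Bap1flox and 68.7, 61.9 and 44.6 CPM in Bap1LysM, a 36.5-fold difference (log2 5.19, SE 0.21, adjusted p = 3.7e-06). Fxyd2 (chr9:45403138-45410278), a regulatory subunit of the sodium pump, was the most abundant of the 10, at 9.91, 11.2 and 20.5 CPM in Bap1flox and 183, 141 and 137 CPM in Bap1LysM (log2 3.47, SE 0.27). In both genes each Bap1LysM library exceeded the highest Bap1flox library by a wide margin. Adm (chr7:110627661-110629820), the vasodilator peptide adrenomedullin, rose from 0.604, 0.817 and 0.982 CPM to 16.5, 12.9 and 13.9 CPM (log2 4.19, SE 0.20). Saa3 (chr7:46711998-46715676), an acute-phase serum amyloid of macrophages, rose from 0.954, 0.731 and 1.34 CPM to 13.3, 12.8 and 9.75 CPM (log2 3.56, SE 0.23). Susd2, a membrane protein with a sushi domain, stood at 0.429 to 0.619 CPM in Bap1flox and 11.8 to 18.6 CPM in Bap1LysM (log2 4.73, SE 0.25). Of these genes 9 were close to silent in Bap1flox, with mean levels of 0.246 to 1.60 CPM, and Fxyd2 was the exception at 13.9 CPM. Rasd2, a small GTPase, Lrrc4, a synaptic adhesion protein, Scube3, a secreted EGF-domain protein, and Apol7c, an apolipoprotein L, had log2 fold changes of 4.08, 3.44, 3.39 and 3.33. Jchain joins the subunits of IgA and IgM, and its values are given with the immunoglobulin genes.

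By the same rule Lyz2 had the largest decrease, and Npy, Rgs1, Fam234b, Gatm, Mpzl1, Nipsnap1, Gng7 and Fabp7 were among the next, with log2 fold changes of -3.11 to -2.49. Npy (chr6:49822710-49829507), the precursor of neuropeptide Y, measured 27.5, 38.1 and 34.4 CPM in Bap1flox and 3.53, 2.95 and 5.196 CPM in Bap1LysM, 8.65-fold less (SE of the log2 value 0.21, adjusted p = 6.5e-05). Gatm (chr2:122594467-122611303), the mitochondrial enzyme that starts creatine synthesis, was even among the Bap1flox libraries at 22.4, 21.5 and 21.8 CPM and stood at 2.87, 4.88 and 3.05 CPM in Bap1LysM (log2 -2.60, SE 0.19). Rgs1 (chr1:144242296-144249242), which shortens G-protein signalling downstream of chemokine receptors, was uneven in Bap1flox at 6.84, 9.48 and 20.8 CPM, and measured 1.52, 1.70 and 2.00 CPM in Bap1LysM (log2 -2.84, SE 0.40). Despite that spread its genotypes did not overlap. Mpzl1, an immunoglobulin-domain receptor that binds the phosphatase SHP-2, fell from 9.03, 8.75 and 9.26 CPM to 1.57, 1.31 and 1.66 CPM (log2 -2.58, SE 0.15). Fabp7, a fatty acid binding protein, fell from 5.76, 7.48 and 6.57 CPM to 0.796, 0.977 and 1.82 CPM (log2 -2.49, SE 0.29). Fam234b, Nipsnap1, a mitochondrial protein, and Gng7, a G-protein gamma subunit, all had Bap1LysM means of 1.12 to 1.20 CPM against 6.78 to 7.08 CPM in Bap1flox. A short list holds solute carrier and metabolic genes that the study labelled in preOCs. Of the 10 on it, 9 fell and 1, Slc7a11, rose. That list had been picked on data that include these libraries, so its direction is not independent evidence.

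**Figure D2:**
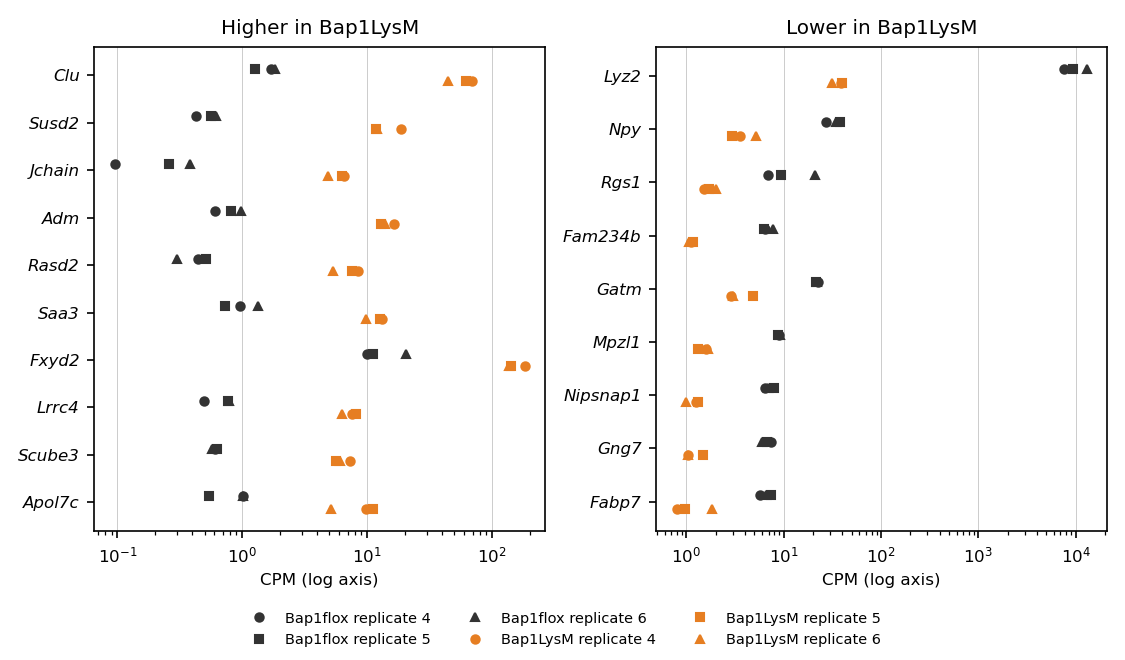
CPM (log axis) in each of the 6 libraries for the 10 protein-coding genes of at least 5 CPM with the largest increase (left) and 9 of the 10 with the largest decrease (right), with Bap1flox in black, Bap1LysM in orange and a symbol for each replicate. The genotypes do not overlap in any of these genes, as the rule that chose them required, and Lyz2 spans 31.1 to 12962 CPM.

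The partners of BAP1 were called about as often as other genes. Of the 12 tested genes of the deubiquitinase complex and its known partners, 2 rose (Asxl2 and Mbd5), 1 fell (Ube2o), where 33.8% of all genes were called in either direction, and the median log2 fold change was 0.07. Without Bap1flox replicate 6, 2 fell. Asxl2 (chr12:3426857-3506852), an ASXL subunit that activates BAP1, measured 59.6, 56.8 and 65.1 CPM in Bap1flox and 76.1, 81.8 and 88.8 CPM in Bap1LysM (log2 0.44, SE 0.09, adjusted p = 0.0063). Mbd5, a methyl-CpG-binding-domain protein that binds the complex, rose by 0.61 on the log2 scale (SE 0.11). Ube2o, the ubiquitin ligase known to modify BAP1, fell by 0.47 (SE 0.11). Asxl1 (-0.12), Hcfc1 (-0.06), Foxk1 (-0.06), Foxk2 (0.06) and Ogt (0.32, SE 0.13) did not pass the test. Of these, Ogt, the O-GlcNAc transferase, stood at 88.1 to 122 CPM in Bap1flox and 118 to 129 CPM in Bap1LysM, and the genotypes overlapped.

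Genes of the opposing Polycomb complexes were called at a share near that of all genes. Of 34 tested, 6 rose and 6 fell, against 15.8% and 18.0% of all genes, and without Bap1flox replicate 5 only 3 rose. Cbx6, a chromodomain subunit of PRC1, fell from 12.7, 15.4 and 11.5 CPM to 6.84, 4.72 and 5.68 CPM (log2 -1.20, SE 0.17). Bcor, the scaffold of a variant PRC1, rose from 57.8 to 61.4 CPM in Bap1flox to 102 to 111 CPM in Bap1LysM (log2 0.85). Pcgf6, another variant PRC1 subunit, fell by 1.32 on the log2 scale, and Phf19, which recruits PRC2, fell by 1.01. Kdm6a, an H3 lysine demethylase that counters PRC2, rose by 0.69.

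Osteoclast markers were expressed in both genotypes, and most did not pass the test, with 2 of 12 marker genes higher and 1 lower. The number higher was 5 without Bap1flox replicate 4, 0 without Bap1flox replicate 5, and 1 without Bap1flox replicate 6 or Bap1LysM replicate 4 or 6. The 12 marker genes summed to 10600 to 14290 CPM in Bap1flox and 13550 to 13950 CPM in Bap1LysM, so the defining markers of the labelled cells were present in every library. Acp5 (chr9:22126731-22135746), tartrate-resistant acid phosphatase, measured 2750, 2278 and 1599 CPM in Bap1flox and 2396, 2148 and 2084 CPM in Bap1LysM (log2 0.00, SE 0.18). Ctsk (chr3:95499286-95509362), cathepsin K, measured 1690, 1339 and 1062 CPM in Bap1flox and 1651, 1533 and 1900 CPM in Bap1LysM (log2 0.31, SE 0.16, adjusted p = 0.17). Nfatc1 stood at 572 to 831 CPM and 785 to 835 CPM (log2 0.22, SE 0.13, adjusted p = 0.23), and Itgb3, the beta3 integrin, at 55.5 to 92.8 CPM and 89.9 to 109 CPM (log2 0.41, SE 0.17, adjusted p = 0.087). In all 4 genes Bap1flox replicate 6 was the lowest of the Bap1flox libraries, and the genotypes overlapped. A p that misses the threshold does not show that the levels are equal. Dcstamp (chr15:39745932-39760934), the receptor-like protein needed for fusion, was lower in every Bap1LysM library, at 62.1, 68.3 and 59.2 CPM against 159, 118 and 79.7 CPM (log2 -0.91, SE 0.21, adjusted p = 0.010). Calcr, the calcitonin receptor, was called higher at 14.5, 10.8 and 13.7 CPM against 10.9, 6.32 and 4.72 CPM, but its genotypes overlapped and it lost the call without Bap1flox replicate 5 or 6 or Bap1LysM replicate 4 or 6 (log2 fold changes of 0.58 to 0.79).

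Signalling genes below RANK and the M-CSF receptor were more often called higher than lower, mostly by small changes. Of 33 tested, 14 rose and 2 fell, against 15.8% and 18.0% of all genes, with a median log2 fold change of 0.24, but at 1.5-fold only 2 were higher and 1 lower, and without Bap1flox replicate 5, 6 rose. Without Bap1flox replicate 4 or 5 or Bap1LysM replicate 4 or 5, 1 fell. Tnfrsf11a, which encodes RANK, stood at 205 to 225 CPM in Bap1flox and 252 to 292 CPM in Bap1LysM (log2 0.34, SE 0.09, adjusted p = 0.017). Gab2, an adaptor that binds RANK, rose by 0.69 and Ppp3ca, a catalytic subunit of calcineurin, by 0.59. Vav3, the guanine nucleotide exchange factor for Rac in osteoclasts, fell from 41.6, 40.7 and 51.8 CPM to 20.8, 27.3 and 27.9 CPM (log2 -0.82, SE 0.14). Itgav, the alpha-v partner of the beta3 integrin, fell from 510, 399 and 382 CPM to 239, 249 and 323 CPM (log2 -0.67, SE 0.15). Podosome and actin ring genes lay near the share of all genes, with 9 of 47 rising and 6 falling and a median of 0.10, and 5 rose without Bap1flox replicate 5 or Bap1LysM replicate 5. At 1.5-fold 4 were higher and 5 lower, Vav3 and Itgav among the latter. Fscn1, which bundles actin, rose by 1.55 on the log2 scale (SE 0.27), and Svil, supervillin, fell by 0.69. Of 28 bone resorption genes 4 rose and 1 fell, and none rose without Bap1flox replicate 5 or Bap1LysM replicate 4, while 2 rose without Bap1LysM replicate 5, and 2 and 3 fell without Bap1flox replicates 4 and 6. All 18 tested genes of the vacuolar ATPase, the proton pump of the resorption space, kept a fold change under 1.5, and 3 of them rose, or 0 to 2 with each library left out.

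Transcription factors of the osteoclast lineage were called no more often than other genes. Of 34 tested, 4 rose and 5 fell, against 15.8% and 18.0% of all genes, and 7 rose without Bap1flox replicate 6 and 8 without Bap1LysM replicate 6. Myc, which RANKL induces, measured 148, 153 and 132 CPM in Bap1flox and 75.4, 66.6 and 75.6 CPM in Bap1LysM (log2 -0.99, SE 0.09, adjusted p = 0.00017). Fos, an AP-1 subunit required for osteoclasts, fell from 276, 294 and 230 CPM to 198, 182 and 152 CPM (log2 -0.59, SE 0.12), and Mef2c fell by 0.75. Relb, of the alternative NF-kB pathway, rose from 84.7, 81.1 and 64.6 CPM to 151, 140 and 101 CPM (log2 0.77, SE 0.16). Irf4 (log2 1.00) and Tfec (log2 0.59), a relative of MITF, also rose. The data thus hold lower Myc and Fos beside Nfatc1 levels that did not pass the test.

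Developmental transcription factors are often held silent by Polycomb. Of 72 such genes listed, 12 were expressed enough to be tested. Of these, 4 rose and none fell in edgeR, against 15.8% and 18.0% of all genes, with 4 at an unadjusted p under 0.05. DESeq2 also had none lower and voomWithQualityWeights had 1, while none rose in a fit of all 11 preOC libraries. Among those that rose were Sox9 (log2 2.04), Gata3 (1.33) and Sox4 (1.16). Sox4 measured 4.44, 4.19 and 3.82 CPM in Bap1flox and 9.58, 10.4 and 7.73 CPM in Bap1LysM (SE 0.15, adjusted p = 0.00084). Sox9 stayed low, at 0.366 to 0.573 CPM and 1.18 to 2.94 CPM. It met the filter (CPM above 1 in at least 2 libraries) through Bap1LysM alone. A gene that enters this way can hardly fall, so the count of the list does not measure a direction. In preOCs of replicates 1 to 3, 1 of 10 comparable members was above 0 and 9 below (median -0.21). Without Bap1LysM replicate 1, 8 of 12 were above 0 and 4 below (median 0.36). Gata3, at most 1.61 CPM in any library, lost its call without Bap1flox replicate 5 (log2 1.26). Hoxa4 (-0.07) and Hoxb4 (0.07) did not pass the test. Of 9 histone genes tested 4 rose, among them Hist3h2a (1.38) and Hist1h2bc (0.94). Histone transcripts are mostly not polyadenylated, so only part of them is seen in libraries made with oligo-dT.

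Genes of DNA replication and cell division were lower in Bap1LysM. Of 65 cell cycle genes, all tested, 49 fell and 1 rose, where 18.0% of all genes tested fell and 15.8% rose, and the median log2 fold change was -0.49. Leaving out each library in turn, 39 to 54 fell. Mcm5 (chr8:75109528-75128439), a subunit of the replicative helicase, measured 147, 163 and 129 CPM in Bap1flox and 79.6, 83.1 and 86.1 CPM in Bap1LysM (log2 -0.82, SE 0.10, adjusted p = 0.00051). Mcm2 measured 93.1, 112 and 87.8 CPM against 55.9, 56.7 and 57.0 CPM (log2 -0.79), and Gins2, of the GINS part of the helicase, 18.1, 20.3 and 17.3 CPM against 9.56, 10.02 and 9.60 CPM (log2 -0.93, SE 0.10). The Bap1LysM libraries were close to each other in all 3 genes. E2f2, an activator of S-phase genes, fell from 25.4, 31.4 and 26.9 CPM to 16.0, 14.9 and 13.0 CPM (log2 -0.93). The mitotic genes Cdk1 and Ccnb1 fell by 0.57 and 0.45, whereas Mki67, the proliferation antigen, at 369 to 398 CPM and 298 to 417 CPM, did not pass the test (log2 -0.20, adjusted p = 0.28). The member that rose was Cdkn1a, the p21 inhibitor of cyclin-dependent kinases, at 220, 241 and 266 CPM in Bap1flox and 395, 432 and 335 CPM in Bap1LysM (log2 0.67, SE 0.11). Cyclin D1 (Ccnd1), which responds to M-CSF, did not pass the test, at 124, 149 and 129 CPM in Bap1flox and 123, 148 and 126 CPM in Bap1LysM (log2 -0.02, adjusted p = 0.89).

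DNA repair genes moved with them, 30 of 56 lower and 2 higher with a median of -0.39, and 23 to 31 fell and 1 or 2 rose as each library was left out. Of 48 ribosome biogenesis genes 20 fell and none rose, with a median of -0.27, and 12 fell without Bap1flox replicate 5. By contrast, none of the 80 tested cytosolic ribosomal protein genes was called in edgeR, with a median of -0.01 and 3 genes at an unadjusted p under 0.05. DESeq2 called 2 and voomWithQualityWeights 9, and without Bap1flox replicate 6, 7 fell. The Mcm5 promoter is shown because genes of the replicative helicase are known E2F targets. The sequence is RefSeq's (GRCm38.p6, chr8:75109259-75109558, plus strand, 300 bases around the start site), and capitals mark 2 overlapping matches to TTTNNCGC, searched on both strands.
Mcm5: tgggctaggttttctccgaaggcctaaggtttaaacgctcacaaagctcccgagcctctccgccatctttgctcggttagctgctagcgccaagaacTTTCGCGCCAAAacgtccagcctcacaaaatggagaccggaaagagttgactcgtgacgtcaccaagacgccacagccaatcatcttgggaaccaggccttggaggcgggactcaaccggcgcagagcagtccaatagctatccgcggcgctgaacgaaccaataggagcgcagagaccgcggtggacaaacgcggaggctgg
Of the promoters of cell cycle genes that fell, 12 of 39 (30.8%) held TTTNNCGC, against 25.0% of all tested cell cycle genes and 8.68% of 9364 promoters matched to tested genes. The genes that fell gave 39 of the 52 promoters of the list, 13 of which held the match. Their share therefore had to lie near that of the list as a whole.

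In BMMs the same cell cycle genes differed the other way. All 49 had a higher mean in Bap1LysM than in Bap1flox BMMs of replicates 1 to 3, with a median difference of 0.58 in log2 CPM. All 49 were lower in Bap1LysM preOCs of replicates 1 to 3, with a median difference of -0.43, or -0.35 without Bap1LysM replicate 1. The difference was 1.22 in BMMs and -0.38 in those preOCs for Mcm5, and 1.18 and -0.23 for Mcm2. These libraries were compared by their means only, 3 against 3 in BMMs and 3 against 2 in preOCs, and no test of the change of sign was made. DNA repair genes that were lower here had a higher mean in Bap1LysM BMMs in 24 of 30, and ribosome biogenesis genes in 19 of 20. In preOCs of replicates 1 to 3, 30 of 30 and 19 of 20 were lower, or 27 and 14 without Bap1LysM replicate 1. Over all 48 ribosome biogenesis genes, 27 were above 0 and 21 below without that library (median 0.03).

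Interferon-stimulated genes, whose products block viral replication, were more often lower than higher. Of 52 tested, 23 fell and 1 rose, against 18.0% and 15.8% of all genes, with a median of -0.57, but the number that fell was 15, 13 and 12 without Bap1flox replicate 5, Bap1LysM replicate 4 and Bap1LysM replicate 6. In a fit of all 11 preOC libraries 2 fell. Oas3 (chr5:120753098-120777661), an oligoadenylate synthetase, measured 62.7, 81.1 and 109 CPM in Bap1flox and 24.7, 39.3 and 24.4 CPM in Bap1LysM (log2 -1.52, SE 0.24, adjusted p = 0.0017). Oasl2 measured 72.0, 89.3 and 182 CPM against 30.6, 53.4 and 44.8 CPM (log2 -1.41, SE 0.33). Isg15 (chr4:156199424-156200818), a ubiquitin-like modifier, measured 8.88, 10.1 and 16.6 CPM against 5.40, 5.16 and 4.17 CPM (log2 -1.26, SE 0.23). In each of these Bap1flox replicate 6 was the highest library. Without it the median over the 52 genes was -0.31 and 19 fell. Ifitm3 was more even, at 332, 416 and 391.7 CPM in Bap1flox and 178, 189 and 161 CPM in Bap1LysM (log2 -1.11, SE 0.11, adjusted p = 0.00021). The Isg15 promoter carries the element that interferon-activated factors bind, here a pair of GAAA with 2 bases between them, searched on both strands, and capitals mark 3 overlapping matches (RefSeq, GRCm38.p6, chr4:156200769-156201068, minus strand).
Isg15: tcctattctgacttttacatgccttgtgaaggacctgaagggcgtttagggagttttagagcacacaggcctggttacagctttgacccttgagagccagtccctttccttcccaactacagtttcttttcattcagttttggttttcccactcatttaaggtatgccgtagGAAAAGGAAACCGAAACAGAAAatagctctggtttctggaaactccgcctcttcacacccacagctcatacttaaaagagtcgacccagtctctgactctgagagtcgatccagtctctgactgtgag
Such a match was found in 11 of 17 promoters of interferon-stimulated genes that fell (64.7%), in 61.5% of the whole list and in 3.27% of all matched promoters. In preOCs of replicates 1 to 3 the 23 genes were lower in 17, with a median difference of -0.10, and in all 23 without Bap1LysM replicate 1, with a median of -0.82. In BMMs 22 of 23 had a higher mean in Bap1LysM (median 0.29).

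Among chemokines and their receptors 13 of 29 rose and 6 fell, against 15.8% and 18.0% of all genes, with a median of 0.58. Of those that rose, 9 of 12 that could be compared were higher in Bap1LysM preOCs of replicates 1 to 3, 7 of 12 without Bap1LysM replicate 1, and 7 of 11 in BMMs. Over the 28 comparable members, called or not, 12 were above 0 and 16 below without that library (median -0.23). Ccl22 (chr8:94745590-94751699), a chemokine for regulatory T cells, rose from 1.73, 1.63 and 0.960 CPM to 12.7, 11.8 and 7.99 CPM (log2 2.90, SE 0.26, adjusted p = 0.00015). Ccl24, an eosinophil attractant, rose from 0.254 to 0.640 CPM up to 3.23 to 4.91 CPM (log2 3.25), and Ccl7, a monocyte attractant, from 0.763 to 0.960 CPM up to 3.99 to 4.42 CPM (log2 2.26). Ccr2, the receptor that brings monocytes out of marrow, rose from 20.01, 14.6 and 13.8 CPM to 50.3, 51.4 and 73.7 CPM (log2 1.85, SE 0.19). Ccl6 fell by 0.87, and lost its call without Bap1LysM replicate 4 (-0.83) or 6 (-0.82).

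Toll-like receptors and related sensors rose in 11 of 27 and fell in 3, with a median of 0.44, against 15.8% and 18.0% of all genes. All 11 that rose were higher in Bap1LysM preOCs of replicates 1 to 3, but 7 of 11 without Bap1LysM replicate 1 and 5 of 11 in BMMs. Over all 27, 10 were above 0 and 17 below without that library (median -0.08). Tlr7 (chrX:167304929-167330558), an endosomal sensor of single-stranded RNA, measured 56.5, 57.1 and 96.5 CPM in Bap1flox and 212, 230 and 230 CPM in Bap1LysM (log2 1.68, SE 0.19). Tlr9, which senses CpG DNA, measured 9.46, 10.9 and 13.8 CPM against 40.2, 35.6 and 30.0 CPM (log2 1.63, SE 0.16). Tirap, the adaptor of the surface receptors, was lower and even, at 26.7, 27.3 and 28.0 CPM against 12.9, 13.1 and 14.0 CPM (log2 -1.03, SE 0.09).

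Antigen presentation by MHC class II showed 8 of 14 genes higher and 2 lower, against 15.8% and 18.0% of all genes, with a median of 0.70. All 8 were higher in Bap1LysM preOCs of replicates 1 to 3, also without Bap1LysM replicate 1, and 2 of 8 in BMMs. Cd74, the invariant chain, measured 112, 122 and 121 CPM in Bap1flox and 349, 251 and 267 CPM in Bap1LysM (log2 1.29, SE 0.13, adjusted p = 0.00023). H2-Eb1, a beta chain, rose from 13.3, 13.6 and 13.8 CPM to 46.6, 25.3 and 38.9 CPM (log2 1.44, SE 0.19). The transactivator Ciita rose from 3.64, 3.38 and 2.69 CPM to 11.2, 6.32 and 6.14 CPM (log2 1.28), and the costimulator Cd86 from 5.01, 4.62 and 5.93 CPM to 17.6, 16.0 and 15.7 CPM (log2 1.66). In each of these 4 genes Bap1LysM replicate 4 was the highest library. H2-DMb1, which helps load peptide, fell by 0.73, and Cd80 by 0.52.

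Macrophage identity genes rose in 13 of 35 and fell in 7, Lyz2 among the latter, against 15.8% and 18.0% of all genes. Without Bap1LysM replicate 6, 4 fell. In preOCs of replicates 1 to 3, 11 of the 13 were higher in Bap1LysM, or 8 of 13 without Bap1LysM replicate 1, and all 7 were lower. In BMMs 7 of the 13 were higher. Over all 35 members, called or not, 9 were above 0 and 26 below in those preOCs without Bap1LysM replicate 1 (median -0.45). The scavenger receptor Marco rose from 7.13, 6.00 and 6.66 CPM to 53.6, 29.0 and 44.2 CPM (log2 2.68, SE 0.21, adjusted p = 9.3e-05). The lectin Clec10a rose from 3.96, 6.43 and 7.17 CPM to 42.4, 34.3 and 30.9 CPM (log2 2.63), and Siglec1, the sialoadhesin of marrow and lymph node macrophages, from 34.1, 51.5 and 94.1 CPM to 230, 237 and 167 CPM (log2 1.82). The folate receptor Folr2 fell from 30.6, 39.3 and 55.1 CPM to 10.5, 12.6 and 10.2 CPM (log2 -1.91, SE 0.20). Cd36, a scavenger and fatty acid receptor, was uneven in both genotypes, at 306, 478 and 913 CPM and 126, 258 and 168 CPM (log2 -1.62, SE 0.38), and lost its call without Bap1LysM replicate 6 (-1.56).

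**Figure D3:**
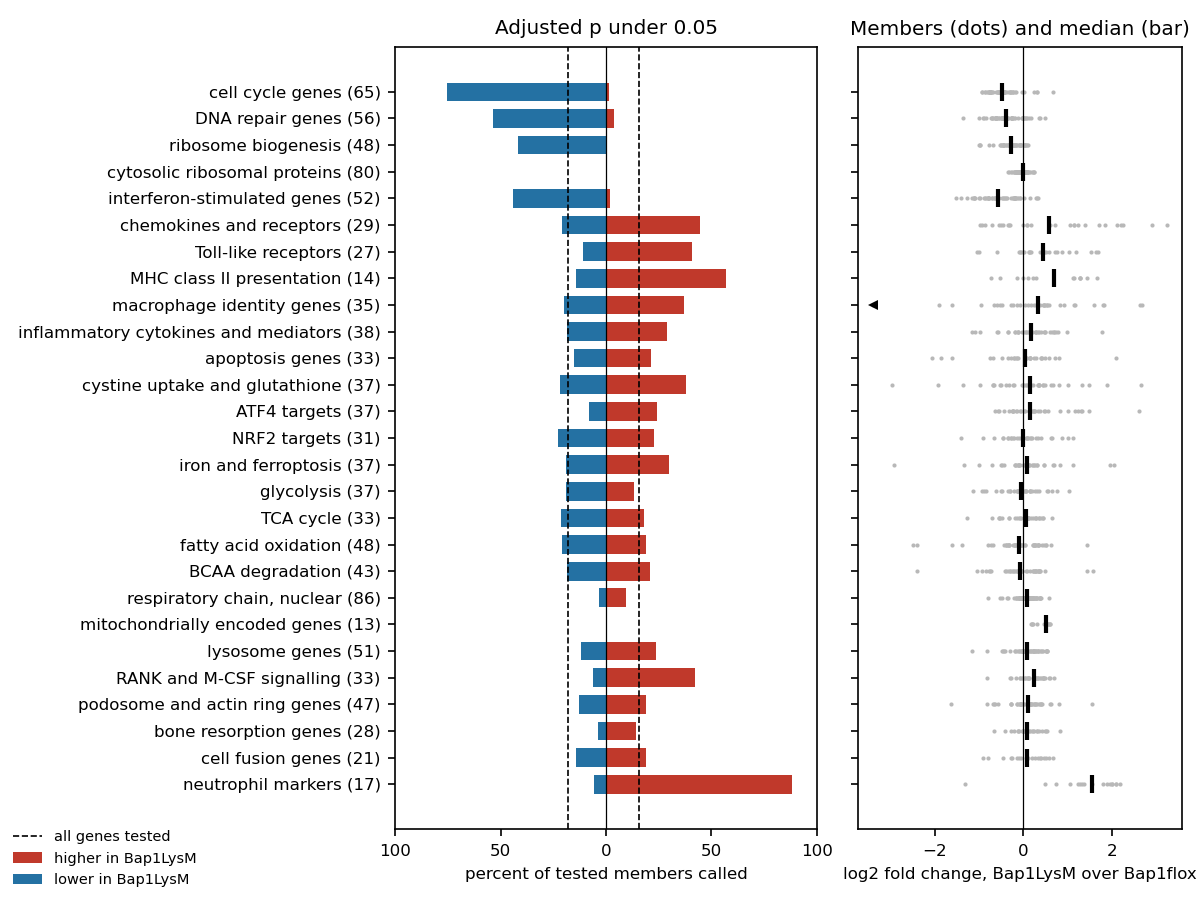
Percent of the tested members of 27 gene lists called higher (red) or lower (blue) in Bap1LysM at an adjusted p under 0.05 (left, number tested in brackets, dashed lines at 15.8% and 18.0% for all genes tested), and log2 fold changes of the members as dots with the median as a bar (right, Lyz2 among the macrophage genes lies off the axis and is drawn as a triangle). The cell cycle genes reach 49 of 65 on the lower side and the neutrophil markers 15 of 17 on the higher side.

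**Figure D4:**
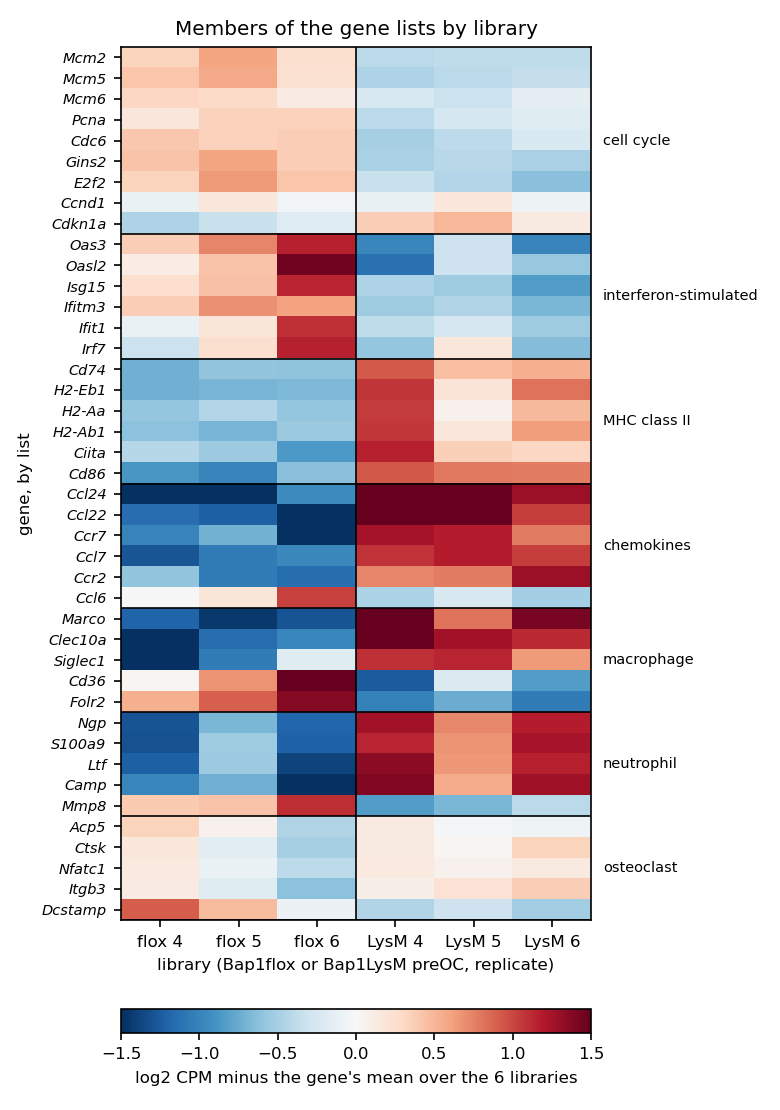
Log2 CPM minus the gene's mean over the 6 libraries (colour) for members of 7 lists (rows) in each library (columns), the rows being chosen with their values known. The replication genes and Ccr2 or Marco split by genotype, the interferon-stimulated genes shown, other than Ifitm3, are highest in Bap1flox replicate 6, and Acp5, Ctsk and Nfatc1 show no split.

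Neutrophil markers were higher in Bap1LysM. In bulk RNA, more cells of a type and more RNA per cell cannot be told apart. Of 17 tested neutrophil markers 15 rose and 1 fell, against 15.8% and 18.0% of all genes. The 18 listed summed to 206 to 289 CPM in Bap1flox and 559 to 735 CPM in Bap1LysM. Ngp (chr9:110419750-110423010), a protein of neutrophil granules, measured 44.0, 66.9 and 47.3 CPM in Bap1flox and 258, 177 and 244 CPM in Bap1LysM (log2 2.10, SE 0.19, adjusted p = 0.00015). Lactoferrin (Ltf, log2 2.09), cathelicidin (Camp, 2.18) and S100a9 (2.01) rose by a like amount, and in all 4 genes Bap1flox replicate 5 was the highest of its genotype and Bap1LysM replicate 5 the lowest of its own. Ly6g, which marks mature neutrophils, was at 0 in Bap1flox replicates 4 and 6 and at most 0.298 CPM in any library. The collagenase Mmp8, which is also on the list, fell from 62.7, 64.1 and 103 CPM to 26.8, 29.6 and 36.0 CPM (log2 -1.32, SE 0.20). The part of these cells in the other immune results was not tested. Of the neutrophil markers that rose, 14 were abundant enough to compare in preOCs of replicates 1 to 3 and all 14 were higher there in Bap1LysM, or 12 of 14 without Bap1LysM replicate 1.

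Immunoglobulin genes were higher in Bap1LysM. Of 8 genes tested in this list 7 rose, the remaining one being Ighmbp2, a helicase that is no immunoglobulin, and without Bap1LysM replicate 5, 4 rose. The summed level of the listed genes was 30.1 to 35.6 CPM in Bap1flox and 117 to 161 CPM in Bap1LysM. Both sums take in Ighmbp2, at 12.9 to 15.2 CPM in Bap1flox and 12.7 to 16.1 CPM in Bap1LysM, so immunoglobulins alone were lower. Igkv1-110 and Igkv10-96 were at most 0.129 CPM in Bap1flox and met the filter on low counts through Bap1LysM alone. Igkc measured 1.56, 3.25 and 3.33 CPM in Bap1flox and 36.1, 32.8 and 28.6 CPM in Bap1LysM (log2 3.60, SE 0.25), and Igha 1.42, 1.31 and 1.09 CPM against 31.3, 29.9 and 17.3 CPM (log2 4.35, SE 0.25). Jchain (chr5:88520512-88527891), a marker of antibody-secreting cells, measured 0.0954, 0.258 and 0.384 CPM against 6.48, 6.34 and 4.84 CPM (log2 4.63, SE 0.37). The B cell markers Cd79a and Ms4a1 stayed at or below 0.613 CPM in every library, Cd79b stood at 1.05 to 1.83 CPM in Bap1flox and 1.51 to 2.34 CPM in Bap1LysM, and Cd22 fell from 4.63 to 10.5 CPM down to 1.74 to 2.00 CPM (log2 -1.91). The 18 B and plasma cell markers found summed to 352 to 444 CPM in Bap1flox and 340 to 407 CPM in Bap1LysM, a sum carried mostly by Sdc1 and Xbp1. Sdc1, which marks plasma cells, fell from 292, 272 and 219 CPM to 213, 177 and 177 CPM (log2 -0.46, SE 0.12), the opposite direction to Jchain. Of the 8 markers tested on that list 3 rose (Ighm, Jchain and Igkc) and 2 fell (Cd22 and Sdc1), and 1 fell without Bap1flox replicate 4 or 5 or Bap1LysM replicate 5 or 6. Immunoglobulin segments resemble each other in sequence, so reads can be split between them.

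Progenitor genes rose in 5 of 10 tested, against 15.8% of all genes. The summed level of the 16 listed overlapped between the genotypes, at 102 to 109 CPM in Bap1flox and 96.4 to 118 CPM in Bap1LysM. Cd34 measured 0.604, 0.774 and 0.469 CPM in Bap1flox and 3.28, 4.16 and 5.04 CPM in Bap1LysM (log2 2.75, SE 0.26), and the stem cell factor receptor Kit 1.304, 1.398 and 0.939 CPM against 4.43, 4.48 and 4.97 CPM (log2 1.92, SE 0.20). Gfi1 (log2 2.41), a repressor of granulocyte precursors, and Myb (1.66) were higher as well. Cd34, Gfi1 and Myb were under 1 CPM in every Bap1flox library. They met the filter on low counts through Bap1LysM alone, so the count of the list does not measure a direction. In preOCs of replicates 1 to 3, 3 of 7 comparable members were above 0 and 4 below (median -0.01). Dendritic cell genes rose in 5 of 9 and fell in 1, against 15.8% and 18.0% of all genes. Their summed level also overlapped, at 181 to 309 CPM and 214 to 286 CPM. Among those that rose were Zbtb46 (1.64) and Ccr7 (2.21), the latter also under 1 CPM in every Bap1flox library. Itgax, the CD11c integrin, did not pass the test (-0.03). Of 19 T and NK cell markers only Cd4 and Trac were expressed enough to be tested, and Cd3d, Cd3e and Cd3g were at or below 0.199 CPM in every library. Stromal markers summed to 515 to 783 CPM in Bap1flox and 292 to 1012 CPM in Bap1LysM, and 2 of 20 rose, with 11 rising without Bap1LysM replicate 5 and 1 without Bap1LysM replicate 4 or 6. All 4 genes of the Y chromosome that were tested as a check of sex rose, with log2 fold changes of 0.40 to 0.60 in libraries that were all from male mice.

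Solute carriers were the longest of the metabolic lists. Of 206 tested, 47 rose and 43 fell, against 15.8% and 18.0% of all genes, and 30 and 27 of them by at least 1.5-fold, and 27 rose without Bap1flox replicate 5. This list was taken by symbol and also holds a few regulators that carry no solute. Slc7a11 (chr3:50364936-50443613), the cystine-glutamate exchanger that feeds glutathione synthesis, measured 16.7, 17.3 and 26.9 CPM in Bap1flox and 41.5, 37.9 and 43.3 CPM in Bap1LysM (log2 1.01, SE 0.17, adjusted p = 0.0028). It also had a higher mean in Bap1LysM preOCs of replicates 1 to 3 (1.45) and in Bap1LysM BMMs (0.43). Slco5a1, an orphan organic anion carrier, rose from 2.16, 1.14 and 1.77 CPM to 12.6, 12.0 and 10.4 CPM (log2 2.77), and Slc6a12, a betaine and GABA carrier, from 18.4, 16.7 and 17.2 CPM to 100.3, 68.0 and 81.0 CPM (log2 2.25). The nucleoside carrier Slc28a2 fell from 7.19, 9.53 and 11.4 CPM to 1.34, 2.14 and 1.64 CPM (log2 -2.45). Slc25a35, of the mitochondrial carrier family, fell by 2.23 and Slc36a2, a proton-coupled amino acid carrier, by 2.10.

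The Slc7a11 promoter holds 2 copies of the element bound by ATF4 with C/EBP, written TGATGNAA and searched on both strands and marked in capitals (RefSeq, GRCm38.p6, chr3:50443564-50443863, minus strand).
Slc7a11: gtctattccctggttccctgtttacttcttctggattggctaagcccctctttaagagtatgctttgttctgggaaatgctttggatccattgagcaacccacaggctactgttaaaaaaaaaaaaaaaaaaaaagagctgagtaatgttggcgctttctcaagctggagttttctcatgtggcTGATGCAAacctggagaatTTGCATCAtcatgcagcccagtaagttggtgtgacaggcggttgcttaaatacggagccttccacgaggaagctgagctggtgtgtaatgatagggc
The element was found in 25 of 681 promoters of genes that were higher (3.67%), in 2.45% of those that were lower and in 2.31% of all matched. Among 37 tested ATF4 targets 9 rose and 3 fell, against 15.8% and 18.0% of all genes, and 7 fell without Bap1flox replicate 6. The lipoprotein receptor Vldlr rose from 9.23, 8.60 and 11.5 CPM to 55.9, 61.3 and 63.1 CPM (log2 2.62, SE 0.12, adjusted p = 1.1e-05). The glycine carrier Slc6a9 (1.49) and Chac1 (1.34), which degrades glutathione, rose as well. The element lay in the promoters of 2 of 8 ATF4 targets that rose and had a promoter in the table, against 32.3% of the tested targets.

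Genes of cystine uptake and glutathione were called in both directions, with 14 of 37 higher and 8 lower against 15.8% and 18.0% of all genes. The number higher was 8 without Bap1flox replicate 5 or Bap1LysM replicate 5, and 9 without Bap1flox replicate 4 or Bap1LysM replicate 4. Ggt5, which cleaves extracellular glutathione conjugates, rose from 0.946 to 1.302 CPM up to 6.12 to 7.79 CPM (log2 2.65), the transferase Gsta3 from 11.3, 14.1 and 22.1 CPM to 57.8, 59.6 and 57.6 CPM (log2 1.89), and the secreted peroxidase Gpx3 by 1.48. The transferases Gstm5 (-2.97), Gstk1 (-1.92) and Gstm4 (-1.35) fell, with Gstm5 at 3.36, 3.07 and 3.44 CPM in Bap1flox and 0.447, 0.332 and 0.486 CPM in Bap1LysM. The Gstm genes are close copies, so reads can be divided between them. Iron and ferroptosis genes rose in 11 of 37 and fell in 7, with 6 rising without Bap1flox replicate 5. Hmox1, which breaks down heme, measured 205, 282 and 326 CPM against 694, 597 and 472 CPM (log2 1.12, SE 0.19), and the zinc and iron carrier Slc39a14 fell by 1.34. NRF2 targets rose in 7 of 31 and fell in 7, with 4 falling without Bap1LysM replicate 4, and a median of -0.02.

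The lists of energy metabolism are given against 15.8% higher and 18.0% lower among all genes, or 7.48% and 9.92% at 1.5-fold. Of 37 glycolysis genes 5 rose and 7 fell, 3 and 4 of them by at least 1.5-fold, and 3 rose without Bap1flox replicate 5 or 6 and 2 without Bap1LysM replicate 5. Hk2, the inducible hexokinase, fell from 34.4, 33.2 and 33.9 CPM to 17.0, 13.7 and 15.1 CPM (log2 -1.15, SE 0.10, adjusted p = 0.00014). The lactate exporter Slc16a3 fell by 0.83 and the regulatory kinase Pfkfb4 by 0.93, whereas its relative Pfkfb3 rose by 1.03. Of 33 TCA cycle genes 6 rose and 7 fell, 1 and 2 of them by at least 1.5-fold, and 1 rose without Bap1flox replicate 5. Pcx, pyruvate carboxylase, which refills the cycle, fell from 17.1, 17.2 and 14.4 CPM to 7.79, 5.23 and 7.29 CPM (log2 -1.26, SE 0.16). Fatty acid oxidation genes rose in 9 of 48 and fell in 10, 2 and 7 of them by at least 1.5-fold, with 3 rising without Bap1flox replicate 5 and 5 without Bap1LysM replicate 4 or 5. Ehhadh, the peroxisomal bifunctional enzyme, fell from 2.15, 3.14 and 2.48 CPM to 0.348, 0.737 and 0.358 CPM (log2 -2.41). Genes of branched-chain amino acid degradation rose in 9 of 43 and fell in 8, but by at least 1.5-fold in 2 and 7, with 4 and 3 rising without Bap1flox replicate 5 and Bap1LysM replicate 5. With upper-quartile factors or library totals 5 of the 43 rose and 12 fell. Of 86 nuclear genes of the respiratory chain 8 rose and 3 fell, only 1 of them, a decrease, by at least 1.5-fold. Without Bap1flox replicate 5, 1 rose, and 3 to 6 rose without any other single library, while 1 to 5 fell.

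All 13 mitochondrially encoded protein genes had a log2 fold change above 0, with a median of 0.52, but none passed the test in edgeR with the filter on low counts, with 7 at an unadjusted p under 0.05. Without that filter edgeR called 8 of them higher, with the replicate block 9, and in the fit of 11 preOC libraries 4. DESeq2 called 5 of them and voomWithQualityWeights 10, and 9 rose without Bap1flox replicate 6 and 1 without Bap1LysM replicate 4. Bap1LysM replicate 6 had the highest mitochondrial share of the 6 libraries. Of 51 lysosome genes 12 rose and 6 fell, against 15.8% and 18.0% of all genes. Without Bap1flox replicate 4 or 5 or Bap1LysM replicate 4 or 5, 5 to 6 rose. Ctsl, cathepsin L, fell from 1167, 1507 and 2044 CPM to 644, 764 and 697 CPM (log2 -1.16, SE 0.18).

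Genes of cell death included some large decreases. Ripk3 (chr14:55784996-55788857), the kinase that starts necroptosis, measured 50.6, 47.8 and 43.9 CPM in Bap1flox and 11.6, 11.8 and 10.6 CPM in Bap1LysM (log2 -2.07, SE 0.09, adjusted p = 1e-05). Gsdme, a pore-forming gasdermin, fell from 12.3, 14.3 and 13.6 CPM to 3.71, 3.69 and 3.69 CPM (log2 -1.86, SE 0.12), and the survival gene Bcl2 fell from 4.57, 5.16 and 7.28 CPM to 1.74, 1.46 and 2.38 CPM (log2 -1.62). The BH3-only gene Hrk rose by 2.08 and Birc2, an inhibitor of apoptosis, by 0.82. Over the 33 apoptosis genes tested 7 rose and 5 fell, near the 15.8% and 18.0% of all genes, and 4 rose without Bap1flox replicate 5. Of 16 complement genes 4 rose and 2 fell, and 2 rose without Bap1flox replicate 5 or Bap1LysM replicate 4 or 5 and 7 without Bap1flox replicate 6. Cd55, which protects cells from complement, rose from 3.13, 2.90 and 3.50 CPM to 22.9, 25.1 and 25.1 CPM (log2 2.94, SE 0.12, adjusted p = 3.7e-06), and C3 rose from 335, 407 and 556 CPM to 1274, 1196 and 1124 CPM (log2 1.47). The members that fell were C1ra, a protease of the first component (log2 -2.12, SE 0.24), and Cd59a, which also protects cells from complement (log2 -0.94, SE 0.14). Clec7a, Bst2 and Zfp979 were called but each lost the call in at least 4 of the 6 leave-one-out fits, with log2 fold changes of -1.16 to -0.92, -0.61 to -0.43 and 0.67 to 1.22 where it was lost.

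The differences were then followed in libraries that had no part in the test. Of the 1262 genes that were lower, 1240 had a mean of at least 1 CPM in preOCs of replicates 1 to 3, and 1204 of them (97.1%) were lower there too. Of the 952 that were higher, 681 of 813 (83.8%) were higher there. For all genes tested the sign was shared in 74.1%. The library labelled Bap1LysM replicate 1 stood apart among those preOCs, since its Lyz2 level was 6715 CPM, beside 7187 to 8560 CPM in Bap1flox and 13.6 CPM in Bap1LysM replicate 2, which goes against its label. Without it the shares were 96.4% and 86.4%. At a log2 fold change of at least 2, all 55 comparable genes that were lower kept their sign and 68 of 74 that were higher did, or 72 of 73 without that library. In BMMs, 72.7% of the lower genes and 47.4% of the higher genes had the same sign, against 54.3% of all genes. Clu had a difference of 3.09 in preOCs of replicates 1 to 3 and 0.36 in BMMs. Scube3 differed by -0.22 in those preOCs, or 0.88 without Bap1LysM replicate 1. Vldlr had a difference of 1.43 in both, and Cd55 had 1.37 in preOCs and 3.57 in BMMs.

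**Figure D5:**
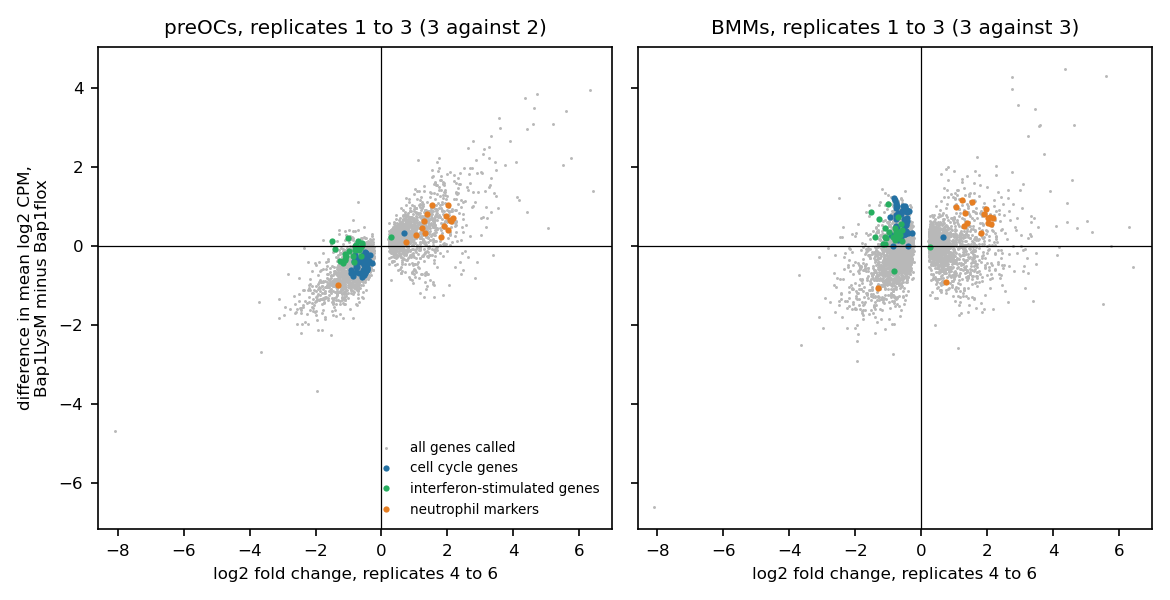
Difference in mean log2 CPM, Bap1LysM minus Bap1flox, in preOCs (left) and BMMs (right) of replicates 1 to 3 (vertical axis) against the log2 fold change in preOCs of replicates 4 to 6 (horizontal axis) for the 4304 genes called. The 49 cell cycle genes that fell (blue) lie below 0 on the left and above 0 on the right, the interferon-stimulated genes (green) lie on both sides of 0 on the left, and neutrophil markers (orange) lie mostly above 0 in both.

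The genes called were spread over the genome. On the autosomes and the X chromosome 29.9% to 39.0% of the genes tested were called. Within 5 Mb of Bap1, 21 of 58 genes were called (36.2%), and within 5 Mb of Lyz2, 14 of 36 (38.9%), close to the 33.8% of all genes. Promoters of the genes that were higher held fewer CpG dinucleotides. The median was 15 in the 300-base promoters of 681 higher genes, 18.5 in 978 lower genes and 21 in all 9364 matched genes, and 28.0% of the higher genes had 5 or fewer, against 14.1% and 9.95%. Promoter CpG number also goes with the expression level of a gene, which was lower among the genes that were higher here, and the part of that level was not tested. The antioxidant element core TGACNNNGC, which NRF2 binds, occurred in 14.5% of higher, 16.5% of lower and 15.1% of all promoters. The E-box CACGTG occurred in 8.37%, 11.9% and 10.4%, and the AP-1 site TGANTCA in 5.73%, 6.34% and 4.94%.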

How the data were processed

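Total RNA was sequenced after oligo-dT selection as paired 150-base reads. Per the labels and the study's methods, the authors aligned reads with STAR 2.5.1a to GRCm38 with Ensembl 76 and counted them per gene with featureCounts 1.4.6-p5. The strand setting is not given in the sources used here. The deposited table held raw counts, CPM and RPKM for each library. The authors' CPM served only for the direction in other libraries, as log2 of the deposited CPM plus 0.05, and the deposited RPKM entered no test.

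Counts of the 6 libraries, without 355 ribosomal RNA genes, were fitted with edgeR 4.0.16 in R 4.3.3 (TMM factors, quasi-likelihood test, genotype as the term) over 12728 genes with CPM above 1 in at least 2 libraries. All printed adjusted p-values are Benjamini-Hochberg values of that fit unless another tool is named, and "rose" and "fell" mean an adjusted p under 0.05. Per-library CPM were scaled by TMM factors. In simulated data for this comparison edgeR recovered 85.0% of genes changed by a log2 of 1 and 99.0% of those changed by 2, with 4.66% of calls false. DESeq2 had 11.1% false. Those counts were drawn from the levels and spread that edgeR itself had fitted, with only 200 genes changed, and edgeR ran on them without a filter. The share of false calls in the real data was therefore not measured. DESeq2 1.42.0 and limma 3.58.1 (voomWithQualityWeights) were alternatives, with other scalings and filters, a replicate block, a fit of 11 preOC libraries and each library left out. Of 41388 identifiers 97.5% received a GENCODE M21 symbol, whose GRCm38 coordinates are given, and promoters came from RefSeq (GRCm38.p6).

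The members and gene lists were chosen with earlier results of these data known. Named genes were Bap1, Lyz2, Slc7a11, 6 BAP1 partners and 5 osteoclast markers, the 10 largest changes each way described above, and from each list up to 3 called members each way of at least 1.5-fold with the largest log2 fold change, plus the 3 most abundant of each marker list. Other members, such as Mcm2, Mcm5, Mki67, Ifitm3, Cd74 and Ccr2, were named after their values were seen. Some genes that the rule names are not reported here.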

Additional observations from a re-analysis of the deposited data

How the results depend on the processing

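The number of genes called was 2600 to 4675 with each library left out, and 2600 without Bap1flox replicate 5. It was 4840 with DESeq2, 6117 with voomWithQualityWeights and 4951 without a filter, and no named gene changed sign past the test. With upper-quartile factors or library totals the median of all genes shifted by -0.05 or -0.06, and the share of higher among the genes called was 38.3% or 37.3%, against 46.8%. Under those scalings the median log2 fold change of 9 and 11 of 49 gene lists moved by more than the spread between libraries. The number was 14 with voomWithQualityWeights, 19 in the fit of 11 preOC libraries and 0 with DESeq2. Bap1 itself passed the test under several alternatives, with log2 fold changes of -0.31 (voomWithQualityWeights), -0.29 (DESeq2), -0.35 (upper-quartile factors), -0.36 (library totals) and -0.32 (no filter), and its values were -0.38 to -0.22 with each library left out, over adjusted p-values of 0.0109 to 0.186 (edgeR, DESeq2 or limma as named). The log2 fold change of Lyz2 missed the threshold in the fit of 11 preOC libraries, at -4.70, and stood at -8.26 to -7.86 with each library left out. In that fit, which adds the library whose Lyz2 level goes against its label along with other libraries and a term, 34 of 210 named genes were weaker. Leaving out the mitochondrially encoded genes gives no value for that list. The cause of the changes between fits, and the part of the library with the off-label Lyz2 level, was not tested.

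Replicate numbers did not pair the libraries, with same-number correlations of 0.0232, -0.097 and 0.0604. With the replicate block 4509 genes were called, Bap1 passed at -0.30, and 207 of 210 named genes kept their side of the threshold.

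At 3 against 3 libraries, changes near a log2 of 1 can be missed in genes of low level, and the genotype cannot be told apart from the Lyz2 insertion or from a difference in cell makeup.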

Other observations

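Against 15.8% of all genes higher and 18.0% lower, several further lists lay near or below those shares. Of 21 cell fusion genes 4 rose and 3 fell in edgeR, and 1 rose without Bap1flox replicate 5 or Bap1LysM replicate 4, while 6 fell without Bap1flox replicate 6. Of 315 zinc finger genes 32 rose and 42 fell, and 17 rose and 27 fell without Bap1flox replicate 5, while 20 rose without Bap1flox replicate 4 or Bap1LysM replicate 5. Cholesterol and lipid synthesis genes rose in 7 of 41 and fell in 6, with 4 rising without Bap1flox replicate 4 or 5 or Bap1LysM replicate 5. Of 38 inflammatory cytokines and mediators, more rose than that share, with 11 higher and 7 lower, but 7 rose without Bap1flox replicate 5.

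Erythroid and megakaryocyte markers summed to 350 to 366 CPM in Bap1flox and 485 to 549 CPM in Bap1LysM. Most of this was Tfrc, at 302.5, 277.2 and 275 CPM in Bap1flox and 411.9, 458.9 and 485.6 CPM in Bap1LysM. Mast cell, basophil and eosinophil markers summed to 4.67 to 6.26 CPM and 10.1 to 10.5 CPM. Of this, Kit, also on the progenitor list, gave 0.939 to 1.398 CPM and 4.43 to 4.97 CPM. Hdc gave 0.171 to 0.445 CPM and 1.22 to 1.87 CPM. T and NK cell markers summed to 5.97 to 9.88 CPM and 13.9 to 16.2 CPM. Most of this was Cd4, at 3.42 to 7.70 CPM and 10.4 to 11.6 CPM, and Trac, at 1.09 to 1.80 CPM and 2.43 to 3.71 CPM. These 3 sums did not overlap between the genotypes, but each gap came mostly from the members named, so it does not describe the cell types as a whole. Of all genes tested 49.2% were without overlap. The sums of the dendritic cell, progenitor, stromal, and B and plasma cell markers overlapped. Of 6 erythroid and megakaryocyte markers tested 4 rose and 1 fell, and 2 rose without Bap1flox replicate 4 or Bap1LysM replicate 4 or 5.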
